A study of Homo sapiens with 24 samples.

Results

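The genes described here are 3 adenylate kinase genes (AK1, AK3 and AK4) and 4 genes of adenosine metabolism and signaling (NT5E, ADORA2B, ADA and ADK), 7 of the 23106 genes counted in each library. They were picked by gene symbol, from a choice made with earlier results of these data known. RNA-seq of polyadenylated RNA was available for 4 human cancer cell lines, A549 (lung), HCT116 (colon), PC3 (prostate) and T47D (breast). Each line was kept either in normoxia (21% oxygen) or in hypoxia (0.5% oxygen for 16 h), with 3 libraries in each of the 8 groups (24 libraries). No gene was altered and no drug was given in any group, all media held serum, and the medium differed with the line (F12K for A549 and PC3, McCoy's 5a for HCT116, DMEM for T47D), so that line and medium cannot be told apart except between A549 and PC3. Each line is a single established line standing for its tumor type, and the labels do not say whether replicates were separate cultures, so p values measure only the spread between these libraries.

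Adenylate kinases move a phosphate between ATP, ADP and AMP and so set how much AMP a cell makes when ATP is used. AK1 is the cytosolic enzyme, while AK3, which uses GTP, and AK4 lie in the mitochondrial matrix. Outside the cell, released ATP is degraded to AMP, which the surface enzyme CD73 (encoded by NT5E) turns into adenosine. Adenosine then acts on receptors such as the A2B receptor (ADORA2B), or is cleared by ADA, which deaminates it to inosine, or by ADK, which phosphorylates it back to AMP. AK4, NT5E and ADORA2B are known from other work as genes that hypoxia-inducible factors (HIFs) can activate.

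In the GRCh37 annotation, AK4 lies on chr1 (65613232 to 65697828, plus strand) and AK3 on chr9 (4709556 to 4742043, minus strand). AK1 is also on chr9 (130628765 to 130639954, minus strand). NT5E is on chr6 (86159302 to 86205509, plus strand) and ADORA2B on chr17 (15848444 to 15879060, plus strand). ADA is on chr20 (43213537 to 43280893, minus strand) and ADK on chr10 (75910960 to 76469721, plus strand). The bases just before the start sites of AK4 and AK3, the mitochondrial members that changed in opposite directions in hypoxia, are printed from RefSeq (GRCh38.p14), 250 bases per start site on the gene's own strand. Capitals mark the core letters of the HIF recognition sequence, ACGTG or GCGTG, on either strand (CACGT or CACGC when read on the other strand), and CACGTG counts as 2 overlapping matches. The 2 start sites of AK4 with the most matches in these 250 bases are shown (3 each), with 1 of the 2 of AK3; the other 2 of AK4 had 0 and 1 match there and the other one of AK3 had 0.
AK4, chr1:65147302-65147551: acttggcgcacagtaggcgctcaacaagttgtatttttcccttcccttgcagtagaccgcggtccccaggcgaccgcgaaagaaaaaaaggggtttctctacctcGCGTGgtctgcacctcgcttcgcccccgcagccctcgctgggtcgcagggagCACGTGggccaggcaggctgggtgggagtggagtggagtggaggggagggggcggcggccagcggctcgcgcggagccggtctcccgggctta
AK4, chr1:65147953-65148202: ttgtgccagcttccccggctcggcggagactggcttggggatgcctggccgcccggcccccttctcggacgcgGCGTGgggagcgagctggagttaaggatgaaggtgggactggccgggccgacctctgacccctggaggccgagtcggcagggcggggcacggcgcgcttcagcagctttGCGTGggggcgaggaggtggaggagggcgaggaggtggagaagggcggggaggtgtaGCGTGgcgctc
AK3, chr9:4741203-4741452: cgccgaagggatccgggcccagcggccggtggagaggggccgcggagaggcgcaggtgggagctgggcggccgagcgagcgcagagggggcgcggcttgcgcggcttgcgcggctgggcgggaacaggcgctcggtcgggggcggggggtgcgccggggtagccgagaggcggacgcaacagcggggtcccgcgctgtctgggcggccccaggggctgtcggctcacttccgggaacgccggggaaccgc
Over the full RefSeq windows of 300 bases (250 before and 50 after a start site), all 4 windows of AK4 held the motif, with 10 matches in all, and neither of the 2 windows of AK3 did. The motif is short and common: 48.4% of all 35116 windows held at least 1 match and 23.1% held 2 or more. Among the other genes, NT5E, ADORA2B and ADA each had 1 match in their only window, while AK1 and ADK each had 2 matches in 1 of 2 windows. A match is a description of these letters and was not tested for HIF binding here.

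Library totals ranged from 22698584 to 62850747 counts, and the 2 shallowest libraries were normoxia replicate 1 of PC3 and hypoxia replicate 3 of HCT116. Levels are CPM (counts scaled to the size of the library) after TMM normalization, and 3 counts, taken as the floor of a library, corresponded to 0.0477 to 0.132 CPM. The hypoxia genes CA9, NDRG1, EGLN3 and ANKRD37 were upregulated in all 4 lines. Of the line markers, ESR1, PGR and GATA3 were highest in T47D, AKR1B10 and AKR1C1 in A549, and CDX2 in HCT116. NKX2-1 and SFTPB were at or near 0 in A549, as were CDX1, VIL1 and CEACAM5 in HCT116 and KLK3 in PC3. Changes were called upregulated or downregulated where the adjusted p was under 0.05 and the level changed over 1.2-fold in edgeR's quasi-likelihood test (Benjamini-Hochberg adjusted). With scaling to total counts, the median change over all tested genes (log2) went from -0.01 to -0.13 in A549 and from -0.01 to -0.12 in T47D. The genes called upregulated and downregulated went from 2452 and 2476 to 1778 and 3461 in A549, and from 922 and 942 to 666 and 1412 in T47D.

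AK4 was upregulated by hypoxia in all 4 lines and was the only gene of the 7 to be called in every line. In A549, AK4 stood at 24.5, 24.9 and 26.7 CPM in normoxia and at 124, 135 and 143 CPM in hypoxia. In T47D it stood at 73.8, 76.2 and 79.5 CPM in normoxia and at 270, 285 and 317 CPM in hypoxia. The gap between the states was far wider than the spread within either state in these lines. In HCT116 the normoxic libraries read 94.7, 99.4 and 124 CPM and the hypoxic libraries 251, 260 and 298 CPM. In PC3 they read 125, 131 and 137 CPM in normoxia and 224, 234 and 236 CPM in hypoxia. The states did not overlap in any line, and PC3, the line with the highest normoxic mean, showed the smallest change. The log2 fold change was 2.40 ± 0.11 (SE, n = 3 per state) in A549, with an adjusted p of 6.73e-08 by edgeR. It was 1.84 ± 0.20 in T47D (edgeR adjusted p = 0.000121), 1.22 ± 0.21 in HCT116 (edgeR adjusted p = 0.000443) and 0.77 ± 0.09 in PC3 (edgeR adjusted p = 0.00102).

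The size of the AK4 response differed between the lines (interaction of line and oxygen state in 1 edgeR fit of all 24 libraries, adjusted p = 1.31e-05). This interaction was called for 4 of the 7 genes (AK4, NT5E, ADA and ADK), against 18.3% of all genes tested. The order of the lines by AK4 level changed with oxygen. In normoxia the means rose from A549 (25.4 ± 1.21 CPM, SD, n = 3) through T47D (76.5 ± 2.86) and HCT116 (106 ± 15.8) to PC3 (131 ± 6.1). The step from HCT116 to PC3 was called (log2 difference of HCT116 over PC3 -0.30 ± 0.13, edgeR adjusted p = 0.0376), but was lost in 7 of 10 alternatives (adjusted p of 0.0653 to 0.283, the highest without replicate 3). The step from T47D to HCT116 (edgeR adjusted p = 0.00199) was lost without replicate 2 of all groups (0.192) and with scaling to total counts (0.104). The place of HCT116 among these 3 lines is thus uncertain, while PC3 stood above T47D (log2 difference 0.78 ± 0.13, edgeR adjusted p = 8.11e-06). In hypoxia they rose from A549 (134 ± 9.4 CPM) through PC3 (231 ± 6.35) and HCT116 (269 ± 25.1) to T47D (291 ± 24). The highest line stood 5.16-fold above the lowest in normoxia and 2.16-fold above it in hypoxia. Hypoxic A549 libraries (124 to 143 CPM) overlapped normoxic PC3 libraries (125 to 137 CPM), and hypoxic HCT116 and T47D libraries overlapped each other. Of the AK4 transcript, 59.84% has a copy of at least 90% identity elsewhere in the genome and 49.86% one of at least 97%, over matches of 100 bases or more. The annotation holds 6 entries with AK4 pseudogene names, 1 of them typed as protein coding, and 6 with AK3 pseudogene names, and none of them was counted under a symbol of its own. Fragments without a unique position were removed before counting, which may have lowered the AK4 counts, likewise those of AK3 (53.64% at 90% identity, 3.51% at 97%). How much was removed was not tested, so both levels are uncertain.

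**Figure D1:**
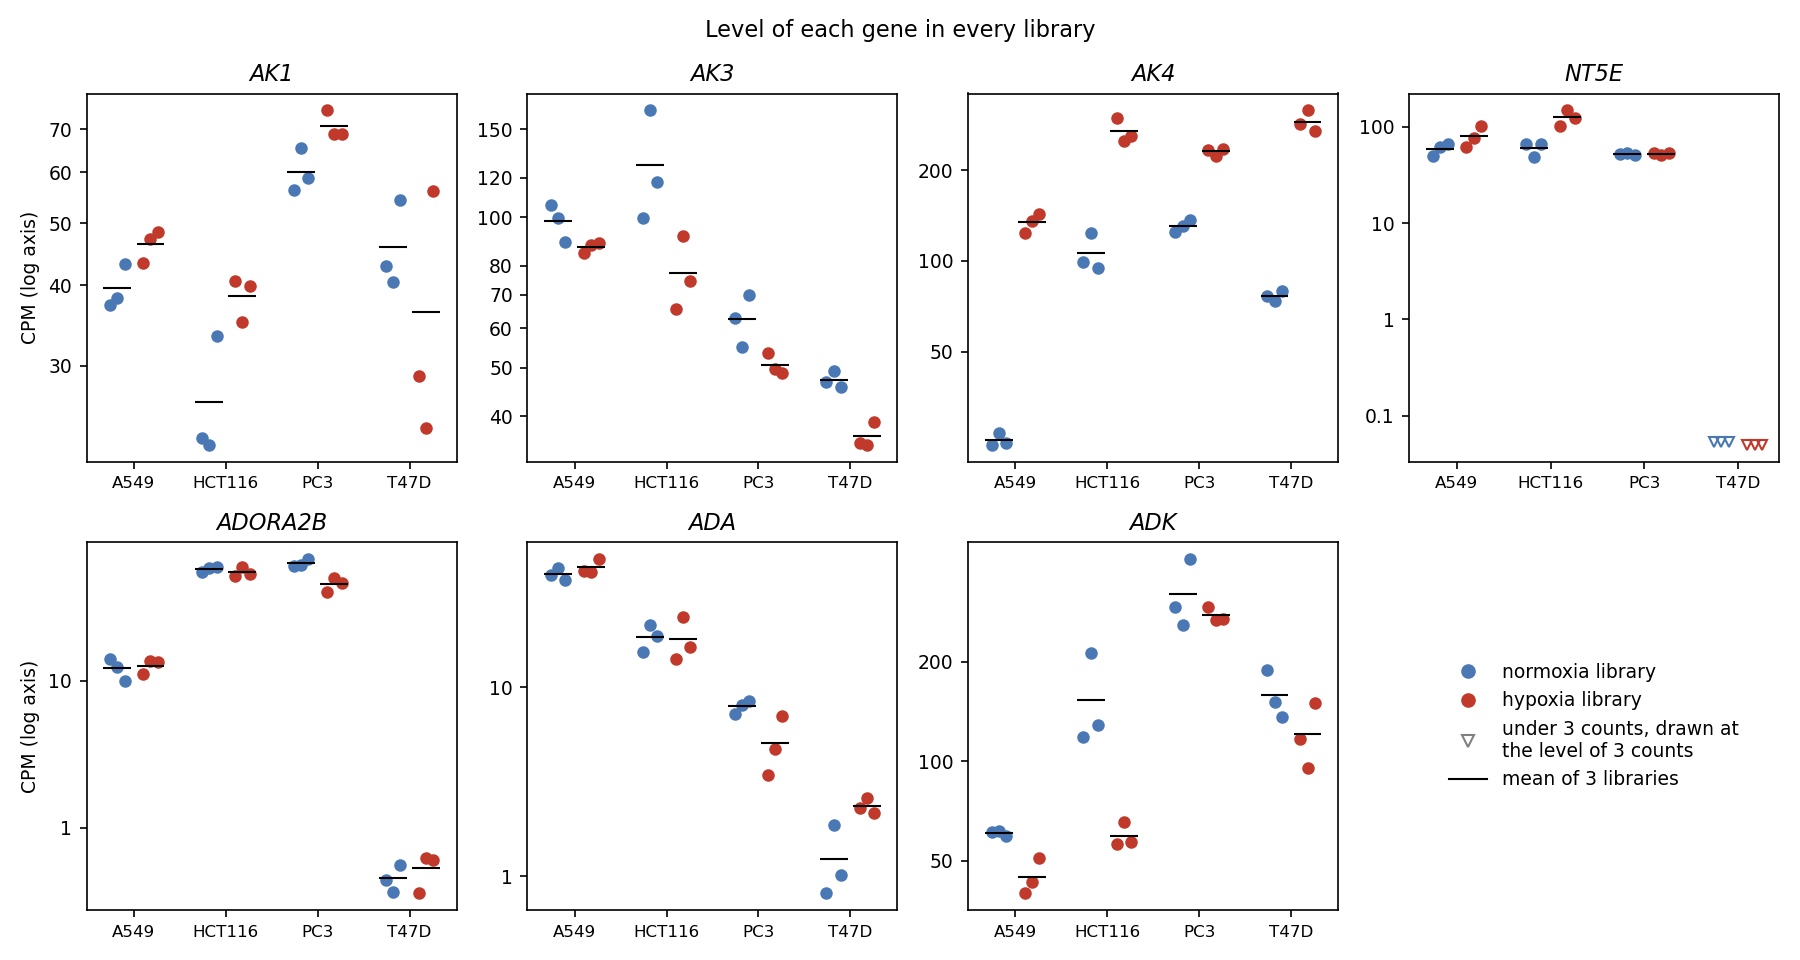
Level of each of the 7 genes in every library, in CPM on a log axis, by cell line, with normoxic libraries in blue, hypoxic libraries in red and black lines at the means of 3 libraries. AK4 was higher in all hypoxic libraries of each line, and NT5E in T47D lay under the level of 3 counts (open triangles).

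AK3 moved the other way. In HCT116 it stood at 99.7, 118 and 164 CPM in normoxia and at 65.6, 74.5 and 91.8 CPM in hypoxia, a log2 fold change of -0.84 ± 0.23 (SE, edgeR adjusted p = 0.00756). In PC3 it stood at 55.1, 62.8 and 69.9 CPM against 48.7, 49.7 and 53.5 CPM, a log2 fold change of -0.36 ± 0.12 (edgeR adjusted p = 0.0379). AK3 was thus downregulated in these lines, although the PC3 call was lost in 6 of 13 alternatives, namely without any one of the hypoxia replicates or normoxia replicates 1 or 3 (edgeR adjusted p of 0.0655 to 0.121) and in edgeR's fit of all libraries (0.224). The highest normoxic value of HCT116 came from replicate 2, and AK3 was called without any single library of that line. In T47D, AK3 stood at 45.7, 46.7 and 49.2 CPM in normoxia and 35, 35.4 and 38.8 CPM in hypoxia, and its log2 fold change of -0.46 ± 0.18 missed the threshold (edgeR adjusted p = 0.112). In A549 the means were 98.2 ± 8.59 CPM (SD, n = 3) in normoxia and 87.2 ± 2 CPM in hypoxia, with a log2 fold change of -0.18 ± 0.11 (edgeR adjusted p = 0.214). The states did not overlap in any of the 4 lines, but in A549 they nearly met. The highest hypoxic library there read 88.7 CPM and the lowest normoxic library 89 CPM. A difference between the lines was not detected for AK3 (edgeR interaction adjusted p = 0.237).

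AK1 was called in no line, though in HCT116 4 of 13 alternatives called it. In HCT116 it stood at 22.6, 23.2 and 33.4 CPM in normoxia and 35.2, 39.9 and 40.7 CPM in hypoxia, with a log2 fold change of 0.44 ± 0.19 (edgeR adjusted p = 0.0758, unadjusted p = 0.0417, DESeq2 adjusted p = 0.0559). The highest normoxic value there came from replicate 3, and without that library the log2 fold change was 0.66 (edgeR adjusted p = 0.0216). It was also called there with no filter (0.51, edgeR adjusted p = 0.0494), with the replicate block (0.45, 0.0427) and in the fit of all 24 libraries (0.55, 0.0355). In T47D the normoxic libraries read 40.4, 43 and 54.2 CPM and the hypoxic libraries 24, 28.9 and 56.1 CPM. Here hypoxia replicate 3 stood apart: with it the log2 fold change was -0.41 (edgeR adjusted p = 0.358), and without it -0.87 (edgeR adjusted p = 0.00923). Without that same library, AK3 (-0.51, adjusted p = 0.048) and ADK (-0.66, adjusted p = 0.0475) were also called downregulated in T47D by edgeR, so that the count of genes downregulated there went from 0 to 3. AK1 had log2 fold changes of 0.22 in A549 and 0.19 in PC3, neither of them called. Part of the AK1 transcript (35.36%) is shared with a read-through gene on the same strand, which makes its counts uncertain.

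Per kilobase of transcript, the balance between the mitochondrial pair shifted toward AK4 in hypoxia in all 4 lines. The AK4 to AK3 ratio per library, given as a description, was 0.142, 0.166 and 0.172 in normoxic A549 and 0.902, 0.95 and 0.993 in hypoxic A549. In T47D it went from 0.924, 1.01 and 1.07 to 4.29, 4.95 and 5.58. On this length AK4 stayed below AK3 in every A549 library, and exceeded it more than 4-fold in every hypoxic T47D library. HCT116 went from a mean of 0.526 ± 0.0784 (SD, n = 3) to 2.21 ± 0.559, and PC3 from 1.3 ± 0.146 to 2.82 ± 0.15. With the union of all annotated exons as the length, the hypoxic means were 0.893, 2.08, 2.65 and 4.65 for A549, HCT116, PC3 and T47D. By coding length alone, the hypoxic A549 libraries read 1.49, 1.57 and 1.64, above AK3, and normoxic A549 libraries 0.235, 0.274 and 0.285. Whether AK4 exceeds AK3 in hypoxic A549 thus depends on the length used. The fold rise of the ratio within a line cannot depend on it, since each length is the same for all libraries. The ratios are also subject to the repeated parts of both transcripts named above.

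**Figure D2:**
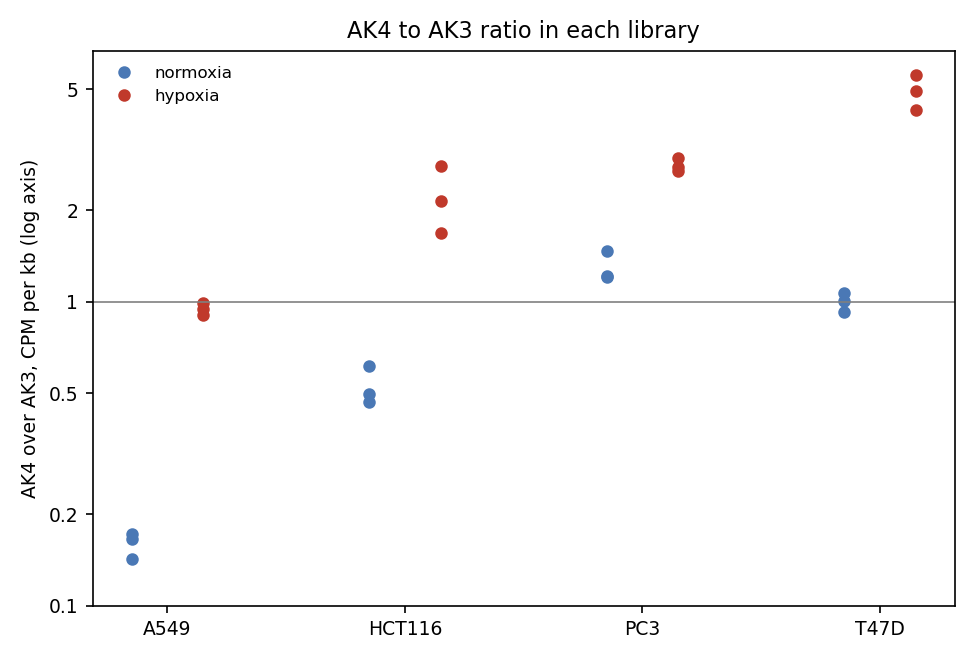
AK4 to AK3 ratio of CPM per kilobase of transcript in each library, on a log axis, by cell line, with normoxia in blue and hypoxia in red and a grey line at 1. The ratio was higher in all hypoxic libraries of each line, from 0.902 to 0.993 in A549 up to 4.29 to 5.58 in T47D.

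NT5E was upregulated in HCT116 and was all but absent from T47D. In HCT116 it stood at 47.8, 65.3 and 66.6 CPM in normoxia and at 102, 123 and 148 CPM in hypoxia, so the states did not overlap. Its log2 fold change there was 0.93 ± 0.21 (SE, edgeR adjusted p = 0.00239). In A549 it stood at 48.9, 61.6 and 65.3 CPM in normoxia and at 61.7, 75.5 and 102 CPM in hypoxia. The A549 states overlapped, and the log2 fold change of 0.44 ± 0.17 was not called (edgeR adjusted p = 0.0624), though DESeq2 called it (adjusted p = 0.0324), as did edgeR without hypoxia replicate 1 (0.60, adjusted p = 0.0146). In PC3 the means were 52.1 ± 1.55 CPM (SD, n = 3) and 52.5 ± 1.56 CPM, with a log2 fold change of -0.04 (95% interval -0.23 to 0.14). The response differed between the lines (edgeR interaction adjusted p = 0.0274), also in a fit of A549, HCT116 and PC3 alone that was chosen after seeing the data (0.0166), but the call over all libraries was lost without replicate 1 (0.0767) or replicate 2 (0.625) of all groups. In T47D, NT5E had 1 count in the 3 normoxic libraries together and 0 in the 3 hypoxic libraries, where a count of 0 allows up to 0.0501 CPM, and it was too low to be tested. In normoxia NT5E was at least 1116-fold higher in HCT116, 1092-fold higher in A549 and 971-fold higher in PC3 than the T47D floor of 3 counts per library (0.0537 CPM). In bulk RNA, fewer cells expressing a gene and less RNA per cell cannot be told apart.

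ADORA2B was downregulated in PC3 and called in no other line. In PC3 it stood at 60.5, 62.2 and 68.2 CPM in normoxia and at 40.4, 46.7 and 50 CPM in hypoxia. The states did not overlap, and the log2 fold change was -0.53 ± 0.11 (SE, edgeR adjusted p = 0.00697). In 1 edgeR fit of all 24 libraries this call was lost (adjusted p = 0.0628). The means in HCT116 were 57.9 ± 2.48 CPM (SD, n = 3) in normoxia and 55.3 ± 4.17 CPM in hypoxia, with a log2 fold change of -0.19 (95% interval -0.56 to 0.19). Those in A549 were 12.2 ± 2.08 and 12.7 ± 1.32 CPM, with a log2 fold change of 0.05 (95% interval -0.28 to 0.39). In T47D the receptor was near the detection limit, with 19 to 40 counts per library and a mean of 0.454 ± 0.0979 CPM in normoxia. A difference in response between the lines was not detected (edgeR interaction adjusted p = 0.162).

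ADA, the deaminase, was downregulated in PC3, from 7.21, 8.08 and 8.48 CPM in normoxia to 3.42, 4.7 and 7.03 CPM in hypoxia. The log2 fold change was -0.70 ± 0.23 (SE, edgeR adjusted p = 0.044), and the call was lost in 6 of 13 alternatives, namely without hypoxia replicate 1 or 2 or any one of the normoxia replicates (edgeR adjusted p of 0.0503 to 0.13) and in the fit of all 24 libraries (0.106). In T47D, ADA stood at 0.812, 1.02 and 1.87 CPM in normoxia and at 2.16, 2.3 and 2.58 CPM in hypoxia. These states did not overlap either, but the log2 fold change of 0.83 ± 0.39 was not called (edgeR adjusted p = 0.163). The log2 fold change was 0.12 in A549 and -0.16 in HCT116, neither called. The interaction was called for ADA (edgeR adjusted p = 0.0262), but not after leaving out replicate 1, 2 or 3 of all groups (adjusted p of 0.239, 0.098 and 0.0656), nor in a fit without T47D (0.126).

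ADK, the adenosine kinase, was downregulated in HCT116 and A549. In HCT116 it stood at 118, 129 and 212 CPM in normoxia and at 56.3, 56.8 and 65.4 CPM in hypoxia. The log2 fold change there, -1.49 ± 0.24 (SE, edgeR adjusted p = 0.000344), was the largest decrease among the 7 genes, and ADK was called without any single library of that line. In A549 it stood at 59.6, 61.2 and 61.6 CPM in normoxia and at 39.9, 43.3 and 51.1 CPM in hypoxia, with a log2 fold change of -0.45 ± 0.11 (edgeR adjusted p = 0.00934). The states did not overlap in either line, but the A549 call was lost without hypoxia replicate 2 (edgeR adjusted p = 0.0563) and in the fit of all 24 libraries (0.139). In PC3 and T47D the states overlapped, and the log2 fold changes of -0.27 ± 0.16 and -0.47 ± 0.24 were not called. In PC3, normoxia replicate 3 read 409 CPM against 259 and 293 CPM, and without normoxia replicate 2 the change was called (-0.42, edgeR adjusted p = 0.0318). The response differed between the lines (edgeR interaction adjusted p = 0.0217), a call lost without replicate 1 (0.113) or replicate 2 (0.284) of all groups.

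By line, 1 of the 7 genes was upregulated in A549 (17.6% of all genes tested were) and 1 was downregulated (17.8%). In HCT116, 2 were upregulated (23.3%) and 2 downregulated (27%), and in PC3, 1 was upregulated (16.6%) and 3 were downregulated (15.7%). In T47D, 1 of the 6 genes tested was upregulated (6.55%) and 0 were downregulated (6.69%). At an unadjusted p under 0.05 in edgeR, 1 gene (AK3) was lower there, and DESeq2 called 0. Such small counts cannot show whether the 7 genes responded as a group, and no test of the set was run. Their median log2 fold changes were 0.12 in A549, -0.16 in HCT116, -0.27 in PC3 and -0.13 in T47D. Those of all genes tested were -0.01 to -0.03.

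**Figure D3:**
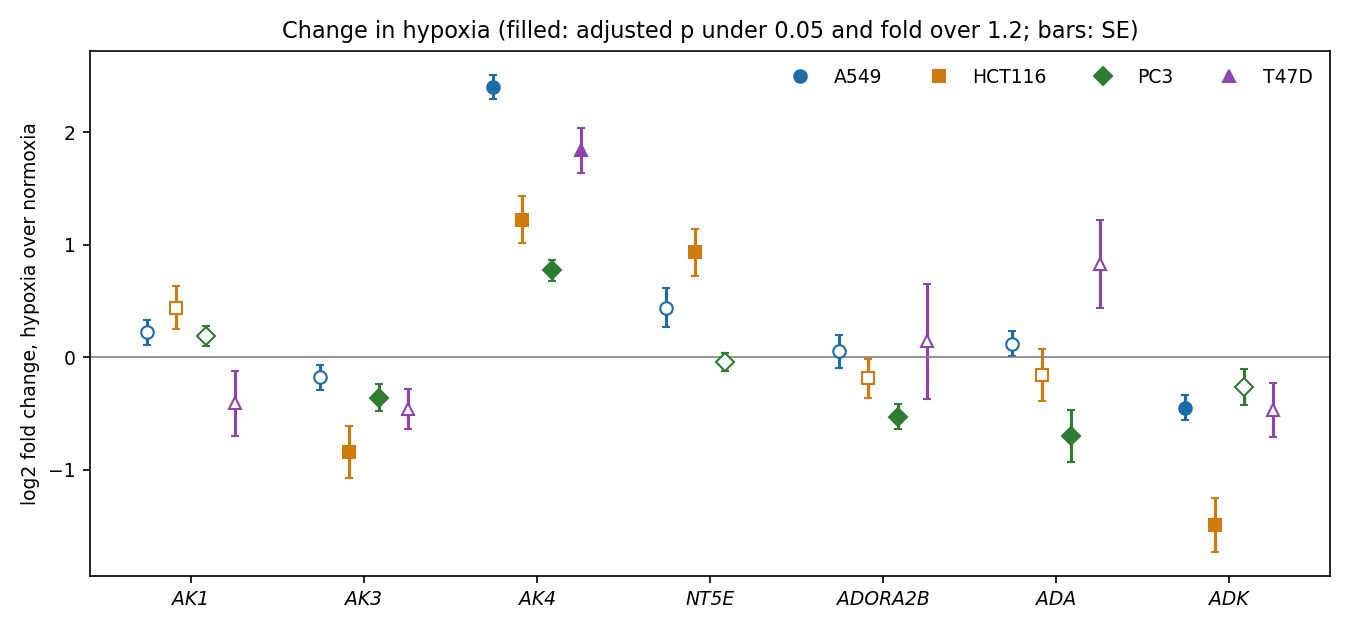
Log2 fold change of the 7 genes in hypoxia over normoxia in each line, with SE bars (3 libraries per state); filled symbols passed the call thresholds (adjusted p under 0.05, over 1.2-fold), and NT5E was not tested in T47D. AK4 is the only gene with filled symbols above 0 in all 4 lines, from 0.77 in PC3 to 2.40 in A549.

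In normoxia the means of ADORA2B spanned 140-fold over the 4 lines and those of ADA 32.1-fold, while their largest fitted changes in hypoxia were 1.45-fold in PC3 and 1.78-fold in T47D. All 7 genes differed between the lines in normoxia by edgeR's F test, close to the share of all genes tested (93.8%). Of the 7, 6 differed between A549 and HCT116 (65% of all genes), A549 and PC3 (60.5%), A549 and T47D (67.7%), HCT116 and T47D (69%) and PC3 and T47D (68.1%), and 5 differed between HCT116 and PC3 (66%). NT5E did not pass the test between any of A549, HCT116 and PC3 (58.6, 59.9 and 52.1 CPM), with a log2 difference of A549 over PC3 of 0.17 (95% interval -0.21 to 0.55). ADORA2B rose in order from T47D (0.454 CPM) through A549 (12.2 CPM) to HCT116 (57.9 CPM) and PC3 (63.6 CPM), and only the last pair did not pass the test (adjusted p = 0.462 by edgeR). ADA ran in a different order, from T47D (1.24 CPM) through PC3 (7.92 CPM) and HCT116 (18.4 CPM) to A549 (39.6 CPM), and all its neighbours differed. T47D thus had the lowest normoxic means of NT5E, ADORA2B and ADA.

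ADK was lowest in A549 (60.8 CPM), similar in mean in HCT116 (153 CPM) and T47D (158 CPM; log2 difference -0.05, 95% interval -0.46 to 0.37) and highest in PC3 (320 CPM). AK3 ran from T47D (47.2 CPM) through PC3 (62.6 CPM) and A549 (98.2 CPM) to HCT116 (127 CPM), with called differences between neighbours, of which those of T47D with PC3 and of A549 with HCT116 were lost in several alternatives. AK1 varied least, from 26.4 CPM in HCT116 through A549 (39.6 CPM) and T47D (45.9 CPM) to 60.1 CPM in PC3, and neither A549 and T47D (adjusted p = 0.38) nor PC3 and T47D (adjusted p = 0.106) passed edgeR's test. Per kilobase of the canonical transcript, ADK had the highest normoxic level of the 7 genes in all 4 lines, at 30.5 CPM per kilobase in A549 and 161 in PC3. With the union of all annotated exons as the length, this held in HCT116, PC3 and T47D, while in A549 AK3 (22.3) and AK1 (15.3) stood above ADK (13.1).

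Across the 24 libraries, the genes whose log2 CPM was most like that of AK4 were PDK1 (Pearson r = 0.940), HK2 (r = 0.928) and PFKFB4 (r = 0.918), among 11271 genes compared. NT5E was most like TES and CAV2 (both r = 0.997) and MSL3P1 (r = 0.995), and ADORA2B most like HOXA10 (r = 0.989), LOC654433 (r = 0.988) and SRPX (r = 0.986). ADA was most like FTL (r = 0.969), ST3GAL5 (r = 0.965) and TNFRSF10B (r = 0.964). ADK was most like DECR1 (r = 0.981), CENPL (r = 0.969) and ALKBH1 (r = 0.958). AK3 was most like C7orf55 (r = 0.978), PFN2 (r = 0.972) and DGUOK (r = 0.964), and AK1 most like GIPC1 (r = 0.885), DAP and CLTB (both r = 0.869). Within the 7 genes, the closest pair was NT5E and ADORA2B (r = 0.94), while AK4 and AK3 had r = -0.46. These points are 8 groups of 3 libraries, so a gene that differs between the 4 lines can reach a high r through the lines alone.

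Outside the 7 genes, the purine pathway was described by lists of related genes. Of the 41 calls of the pathway genes named by rule, 19 held in each alternative run and 22 were lost in at least 1. The calls of SLC29A4 in all 4 lines held in each alternative, as did those of CKB other than in PC3, where the fit of all 24 libraries lost it (adjusted p = 0.0554 by edgeR). Creatine kinase B (CKB), which buffers ATP with phosphocreatine, was upregulated in all 4 lines and was the only gene of the list of other nucleotide and creatine kinases to be called upregulated, out of 11 to 13 tested per line. Its mean went from 43.9 ± 6.74 CPM (SD, n = 3) to 148 ± 32.1 CPM in A549, a log2 fold change of 1.76 ± 0.16 (SE, edgeR adjusted p = 1.93e-05), and its log2 fold change was smallest in PC3 (0.50 ± 0.09). NME1, a nucleoside diphosphate kinase, was downregulated in A549, HCT116 and PC3, with log2 fold changes of -0.49, -1.35 and -0.52, and was not called in T47D (-0.61). The NME1 call was lost in 3 of 13 alternatives in A549 and 4 of 13 in PC3. In all, 2 of 11, 5 of 12, 1 of 12 and 1 of 13 genes of this list were downregulated in A549, HCT116, PC3 and T47D, against 17.8%, 27%, 15.7% and 6.69% of all genes tested. AK8, another adenylate kinase, was upregulated in HCT116 (log2 fold change 1.13, edgeR adjusted p = 0.041). The median log2 fold changes of the nucleotide and creatine kinases in A549, HCT116, PC3 and T47D were -0.01, -0.57, -0.24 and -0.43, against -0.01 to -0.03 for all genes tested.

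Upstream of CD73, ENTPD1, the ectonucleotidase CD39, was downregulated in A549, HCT116 and T47D. Its means went from 24.2 ± 0.791 to 14 ± 1.48 CPM in A549 (SD, n = 3) and from 54.4 ± 2.45 to 28.8 ± 2.72 CPM in T47D (edgeR adjusted p = 0.000621 and 0.00611). The ENTPD1 call in HCT116 was lost without hypoxia replicate 2 or 3 or normoxia replicate 1 or 2 (edgeR adjusted p of up to 0.0861), and that in T47D without normoxia replicate 1 (0.0596). In PC3, ENTPD1 was not called (-0.27), and its related gene ENTPD2 was upregulated in PC3 (log2 fold change 0.61) and A549 (1.61). ENTPD2 was low in A549 (average log2 CPM of 0.11). Of the list of ATP release genes and ectonucleotidases, 1 of 7, 0 of 5, 3 of 9 and 1 of 9 genes tested were upregulated in A549, HCT116, PC3 and T47D, and 1, 1, 0 and 1 were downregulated (medians 0.22, 0.02, 0.08 and 0.46). The shares of all genes tested were 17.6%, 23.3%, 16.6% and 6.55% upregulated and 17.8%, 27%, 15.7% and 6.69% downregulated. The largest change in PC3 was that of ALPPL2 (log2 fold change 1.81 ± 0.46), at 0.646 CPM in normoxia, a gene with close paralogs whose counts are uncertain. The ALPPL2 call was lost without hypoxia replicate 1 (edgeR adjusted p = 0.0663) and in the fit of all 24 libraries (0.0852). Of the intracellular nucleotidases, 1 of 5, 2 of 5, 2 of 6 and 0 of 5 were downregulated (17.8%, 27%, 15.7% and 6.69% of all genes), with NT5C3A downregulated in A549, HCT116 and PC3 (log2 fold changes of -0.37, -1.18 and -0.56). The NT5C3A call in A549 held in 8 of 13 alternatives. The medians of the intracellular nucleotidases were -0.12, -0.43, -0.19 and -0.06. Of the other adenosine receptors, 2 of 2 tested were upregulated in PC3 (16.6% of all genes), and neither was called elsewhere. These were ADORA1 (1.01 ± 0.22, edgeR adjusted p = 0.00917) and ADORA2A (1.36 ± 0.47, edgeR adjusted p = 0.0483). A difference in response between the lines was not detected for either (edgeR interaction adjusted p = 0.542 and 0.381). ADORA2A was low in PC3 (average log2 CPM of -0.18) and close to the threshold. In T47D its log2 fold change of 0.69 ± 0.26 was not called (edgeR adjusted p = 0.0998). The medians of the receptor list were 0.38, 0.18, 1.18 and 0.59.

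Among nucleoside transporters, SLC29A4, an equilibrative transporter that also carries monoamines, was upregulated in all 4 lines. Its mean went from 15.5 ± 1.11 to 65.3 ± 9.25 CPM in A549 and from 4.49 ± 1.15 to 20.9 ± 1.09 CPM in T47D (SD, n = 3), with log2 fold changes of 2.07 ± 0.13 and 2.14 ± 0.23. SLC28A1, a concentrative transporter, went from 0.013 CPM, under the floor of 3 counts, to 1.32 ± 0.222 CPM in T47D (edgeR adjusted p = 0.000192), and it had the largest fitted change of the listed genes in that line. In all, 2 of 4, 1 of 4, 1 of 5 and 2 of 5 transporters tested were upregulated in A549, HCT116, PC3 and T47D (17.6%, 23.3%, 16.6% and 6.55% of all genes), and 1 was downregulated, SLC29A2 in HCT116 (log2 fold change -0.66). The medians of the transporter list were 0.49, 0.01, 0.43 and 0.40.

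In the list of other purine clearance and salvage genes, 4 of 11, 5 of 10, 4 of 11 and 1 of 10 were upregulated in A549, HCT116, PC3 and T47D, and 3, 2, 1 and 1 were downregulated (medians 0.06, 0.54, 0.25 and 0.04). Of all genes, 17.6%, 23.3%, 16.6% and 6.55% were upregulated and 17.8%, 27%, 15.7% and 6.69% downregulated. AMPD2, an AMP deaminase, was upregulated in A549, HCT116 and PC3 with log2 fold changes of 0.43, 0.73 and 0.41. DPP4, the surface protein that binds extracellular ADA, was upregulated in the same 3 lines, with log2 fold changes of 2.47 ± 0.44 in A549, 1.01 ± 0.36 in HCT116 and 0.34 ± 0.10 in PC3. DPP4 was low in A549, at 0.292 ± 0.0984 CPM in normoxia and 1.62 ± 0.677 CPM in hypoxia. PNP, which acts on the inosine made by ADA, was downregulated in A549, HCT116 and T47D (-0.43, -1.07 and -0.81). MTAP was downregulated in A549 (-0.67) and upregulated in PC3 (0.33), AHCYL1 was downregulated in A549 (-0.34) and upregulated in HCT116 (0.63), and the interaction was called for both (edgeR adjusted p = 0.00166 and 0.00692). The levels of MTAP were unlike, with means of 7.25 CPM in normoxia and 4.57 CPM in hypoxia in A549, against 71.8 and 93.1 CPM in PC3. AHCYL2 was upregulated in A549, HCT116 and PC3 (0.37, 0.63 and 0.35). The DPP4, MTAP and AHCYL2 calls in PC3 held in 7, 5 and 8 of 13 alternatives, and those of AHCYL1, AHCYL2, AMPD2 and PNP in A549 in 8, 7, 9 and 9. Those of AMPD2 in PC3, DPP4 in HCT116 and PNP in T47D held in 10, 9 and 9 of 13.

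Of the subunits of AMPK, the kinase that senses AMP, 5 of 6 tested were downregulated in HCT116 (median log2 fold change -1.05) and 5 of 6 in PC3 (median -0.44), against 1 of 6 in A549 (median -0.19) and 1 of 6 in T47D (median -0.46). PRKAB2 was downregulated in A549, HCT116 and PC3 (-0.71, -1.26 and -0.48). In T47D, a fit with replicate number as a block also called PRKAB2 (-0.57, edgeR adjusted p = 0.0412), which made 2 of 6 subunits downregulated there. Whether libraries of the same number were paired is not stated in the labels. PRKAG2 was downregulated in HCT116, PC3 and T47D (-1.21, -0.39 and -0.81), where its PC3 and T47D calls held in 7 and 9 of 13 alternatives. PRKAA2, a catalytic subunit, was the only one called upregulated, in PC3 (0.36 ± 0.10, edgeR adjusted p = 0.0195). Of all genes tested, 27% were downregulated in HCT116, 15.7% in PC3, 17.8% in A549 and 6.69% in T47D.

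**Figure D4:**
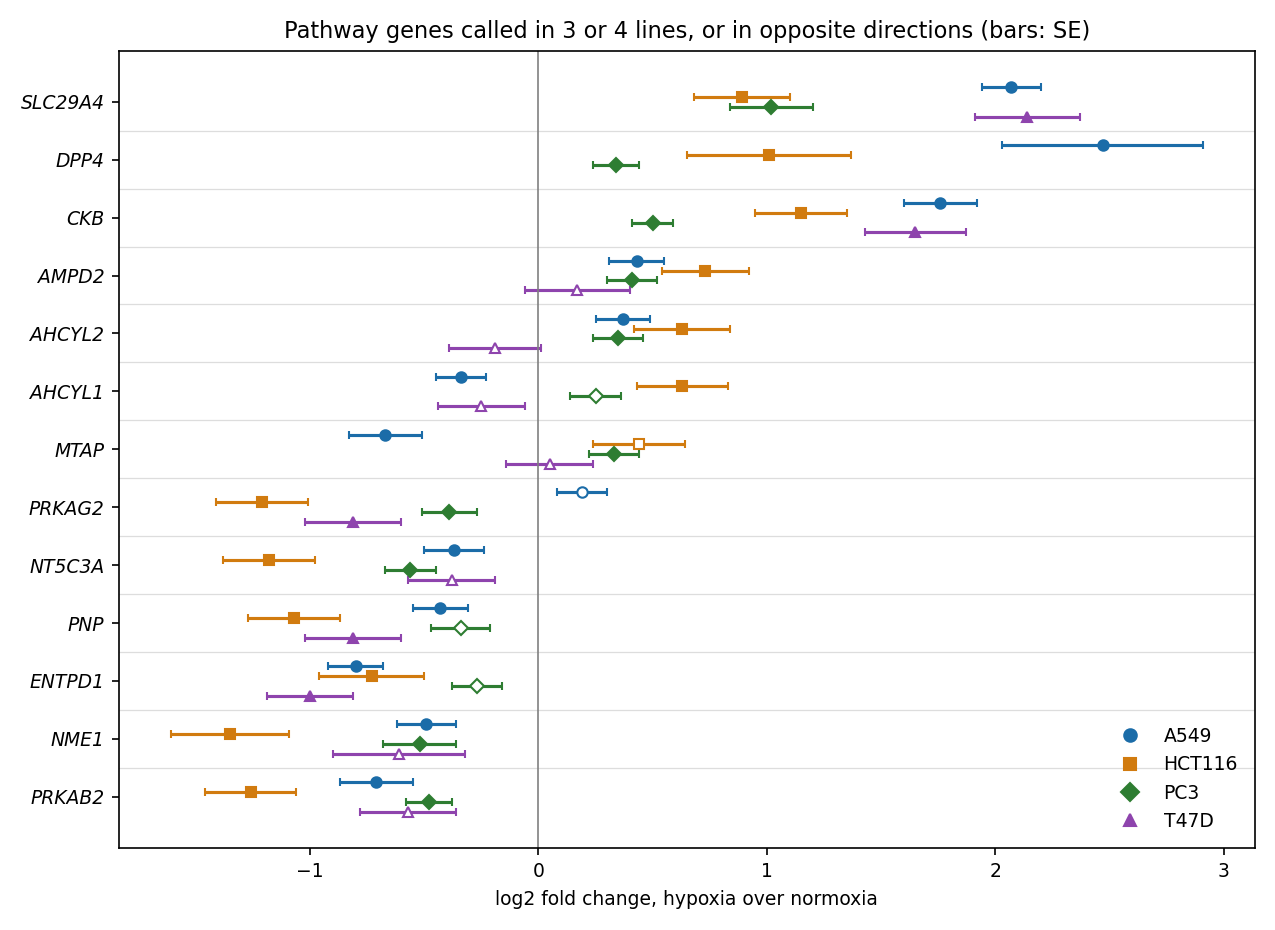
Log2 fold change in hypoxia over normoxia, with SE bars (3 libraries per state), of the listed pathway genes that were called in the same direction in 3 or 4 lines or in opposite directions in different lines; filled symbols passed the call thresholds (adjusted p under 0.05, over 1.2-fold). SLC29A4 and CKB were called above 0 in all 4 lines, while MTAP and AHCYL1 were called on both sides of 0.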

How the data were processed

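RNA-seq counts of 24 libraries were analyzed, and cell line, oxygen state and replicate number came from the sample labels. The authors trimmed reads with Trim Galore, aligned them to GRCh37 with HISAT2, removed fragments without a unique position and counted UCSC-defined genes with HTSeq. The deposited values are raw whole-number counts for each symbol. The library kit keeps strand, but the strand setting of the counting is not given in the sources used here, so overlapping antisense genes (PKIG for ADA, 3.07% of the transcript) cannot be told apart.

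From these counts, fold changes came from edgeR 4.0.16 in R 4.3.3 (glmQLFit and glmQLFTest after filterByExpr and TMM scaling), with the lines fitted one by one. Benjamini-Hochberg adjustment covered all genes tested, and SEs were derived from the F statistics. Differences in response (interaction) and in normoxic level were tested in fits of all 24 libraries. Alternatives were DESeq2 1.42.0, RLE or total-count scaling, no filter or a mean count of at least 50, a replicate block, 1 fit of all libraries, and each library or replicate left out. The tests were checked on simulated data. Log2 levels used for correlations have a prior count of 2.

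Depth ranged from 22698584 to 62850747 counts. Floors of counts cover counting error only, and molecular identifiers were not used. The intervals given with fold changes and with differences between lines were built from the SEs, and so reflect the spread between libraries. Transcript lengths, loci and overlaps came from GENCODE (lifted to GRCh37), and copies were searched in that genome with blastn 2.17.0 (at least 100 bases). Promoter windows were matched by symbol to RefSeq for all 7 genes. The 2 oxygen states share replicate numbers in the labels, which do not say whether libraries were paired. The deviations of 2 libraries with the same number correlated by over 0.1 in every pair of T47D only (0.15 to 0.325). Hypoxia replicate 1 and normoxia replicate 2 of T47D also did (0.118), so pairing there is uncertain. The blocked fit changed no call of the 7 genes in T47D but added PRKAB2 (all genes called went from 1864 to 2766). A fit without T47D was added after the data were seen.

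The genes and the pathway lists were chosen with earlier results of these data known. Named were all 7 genes, listed pathway genes called in the same direction in 3 or 4 lines or in opposite directions, the listed gene with the largest called change in each line, and the 3 genes most correlated with each of the 7 (mean log2 CPM over 1). ADORA1, ADORA2A, AK8, ENTPD2, PRKAA2 and SLC29A2 were named after their values were seen. The symbols NT5C3 and AKD1 in the counts were taken as NT5C3A and AK9. Results of some listed genes are not reported here.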

Additional observations from a re-analysis of the deposited data

Results flagged for a closer look

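For 4 of the 7 genes the change in hypoxia differed between lines by a test of the difference itself, the interaction of line and oxygen state in edgeR's fit of all 24 libraries. For AK4 (adjusted p = 1.31e-05) the change was upward in each line, with log2 fold changes of 2.40 in A549, 1.84 in T47D, 1.22 in HCT116 and 0.77 in PC3, and the call held in each alternative run. For NT5E (edgeR adjusted p = 0.0274) the change was 0.93 in HCT116 and -0.04 in PC3. T47D, with 1 count in all, gave no value for it, and without that line the adjusted p was 0.0166 by edgeR. For ADA (edgeR adjusted p = 0.0262) it was -0.70 in PC3 and 0.83 in T47D, the latter at 35 to 166 counts per library. For ADK (edgeR adjusted p = 0.0217) it was -1.49 in HCT116 and -0.27 in PC3. The calls for NT5E, ADA and ADK were each lost when at least 1 replicate number was left out of all groups, and that for ADA also without T47D (adjusted p = 0.126 by edgeR), a fit chosen after seeing the data.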

How the results depend on the processing

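The AK4 increase was called in all 4 lines under each of the 13 alternatives, as were the changes of NT5E, AK3 and ADK in HCT116. No called change reversed its direction. In A549, 2 genes instead of 1 were called upregulated with no filter, with DESeq2 and with the replicate block, by the addition of NT5E (replicate block 0.42, adjusted p = 0.0182). With scaling to total counts 2 instead of 1 were called downregulated there, by the addition of AK3. With 1 fit of all 24 libraries the genes called downregulated fell to 0 in A549 and to 0 (from 3) in PC3, while 2 instead of 1 were called upregulated in T47D, by the addition of ADA. The replicate block also added AK1 in HCT116 (0.45, adjusted p = 0.0427) and called the interaction of AK1 (0.0241). It took no call in the comparisons of hypoxia with normoxia. Leaving out 1 library at a time gave 1 to 2 genes upregulated and 0 to 1 downregulated in A549, 2 to 3 and 2 in HCT116, 1 and 1 to 3 in PC3, and 1 and 0 to 3 in T47D. The count of genes whose response differed between lines was 1 to 4 with 1 replicate number left out and 3 without T47D, an alternative chosen after seeing the data. Causes of these changes were not tested. Correlations of same-numbered libraries were 0.0826 to 0.207 in A549, 0.0706 to 0.289 in HCT116 and 0.0799 to 0.083 in PC3. Replicate numbers were not taken as pairs in these lines because not every pair exceeded 0.1. This cutoff does not show how the cultures were handled. With 3 libraries per group, the calls of ADA and AK3 in PC3 were each lost on leaving out any of 5 of the 6 libraries, and NT5E in T47D could not be tested at this depth.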
